A study of Mus musculus with 12 samples.

Results

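Mammospheres grown from 12-month-old mice were compared between p66Shc knockout (KO) and wild type (WT) over every gene whose CPM averaged 0.5 or more across the 12 libraries of the study, which left 13961 of the 23406 genes in the deposited table. CPM are read counts relative to the library total, scaled by the authors with TMM (trimmed mean of M-values) factors. Mammospheres are the floating spheres that mammary cells form in suspension culture, here at passage 2 and from C57BL/6J mice. The compared groups were WT and KO at 12 months, with 3 libraries each, and the same genotypes at 2 months, with 3 libraries each, served to show where the older age differed. The genotype is labelled Shc1p66KO or p66-/-, no other allele or agent is named, and neither the construction of the allele nor the number of animals behind each library is given in the labels. The design text counts 3 mice, without saying that each library came from its own animal, so p-values here measure the spread between these libraries, which may be technical.

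Shc1 encodes adaptor proteins that bind phosphorylated receptors and pass the signal to Grb2 and Sos. The longest of them, p66Shc, also takes part in the oxidative stress response, and mice without it have been studied for resistance to oxidative stress. The mammary gland holds luminal cells, which express the simple keratins and make milk, basal cells, which contract and anchor the duct, and a stroma of fibroblasts, fat, vessels and immune cells. The title of the series concerns p53, p66Shc and Insc in how mammary stem cells divide as mice age.

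At 12 months, KO mammospheres had less RNA of luminal and basal epithelial genes and more RNA of interferon-stimulated, inflammatory, immediate-early, sterol synthesis, muscle and mesenchymal genes than WT. Of the 13961 genes, 9801 (70.2%) were called at an adjusted p under 0.05 in limma, 4372 (31.3%) higher and 5429 (38.9%) lower in KO, with a median log2 change of -0.07 over all genes. With CPM by total reads and no TMM scaling, 3007 genes were higher and 7325 lower, and the median shifted to -0.25. With TMM recomputed over the 6 libraries of 12 months 4752 were higher and 4909 lower. Quantile normalization gave 4845 higher and 4725 lower, so the balance of rises and falls depended on the scaling. Changes of more than 1 on the log2 scale numbered 931 rises (6.67%) and 1387 falls (9.93%). All KO libraries lay above all WT libraries at 12 months for 4598 of the 13961 genes and below them for 5726. A lack of overlap was thus the rule and does not set a gene apart. Because most genes were called, a group of genes is read here by its size of change and by its shares beside these backgrounds. Each change given below for a gene is KO minus WT at 12 months on the log2(CPM + 0.5) scale, from limma with Benjamini-Hochberg adjusted p.

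Library totals recovered from the CPM steps ran from 31845169 to 109079737 reads, the highest being KO replicate 3 at 12 months, and 3 reads, taken as the floor, stood for 0.029 to 0.0859 CPM. The floor covers counting error only. Replicate libraries of a group correlated at 0.991 or more on the log2 scale, and no pair agreed within counting error. Positions here are from GENCODE vM21 on GRCm38 (mm10). Shc1 (chromosome 3, 89418550 to 89430029, plus strand) was 219.6, 209 and 203 CPM in the WT libraries and 170.0, 162 and 178 CPM in the KO libraries at 12 months. The groups did not overlap, and KO was lower (log2 change -0.31 ± 0.06 SE, adjusted p = 0.000593). Reads of the exons that all Shc1 proteins share stand in this count, so it does not check the loss of p66Shc.

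**Figure D1:**
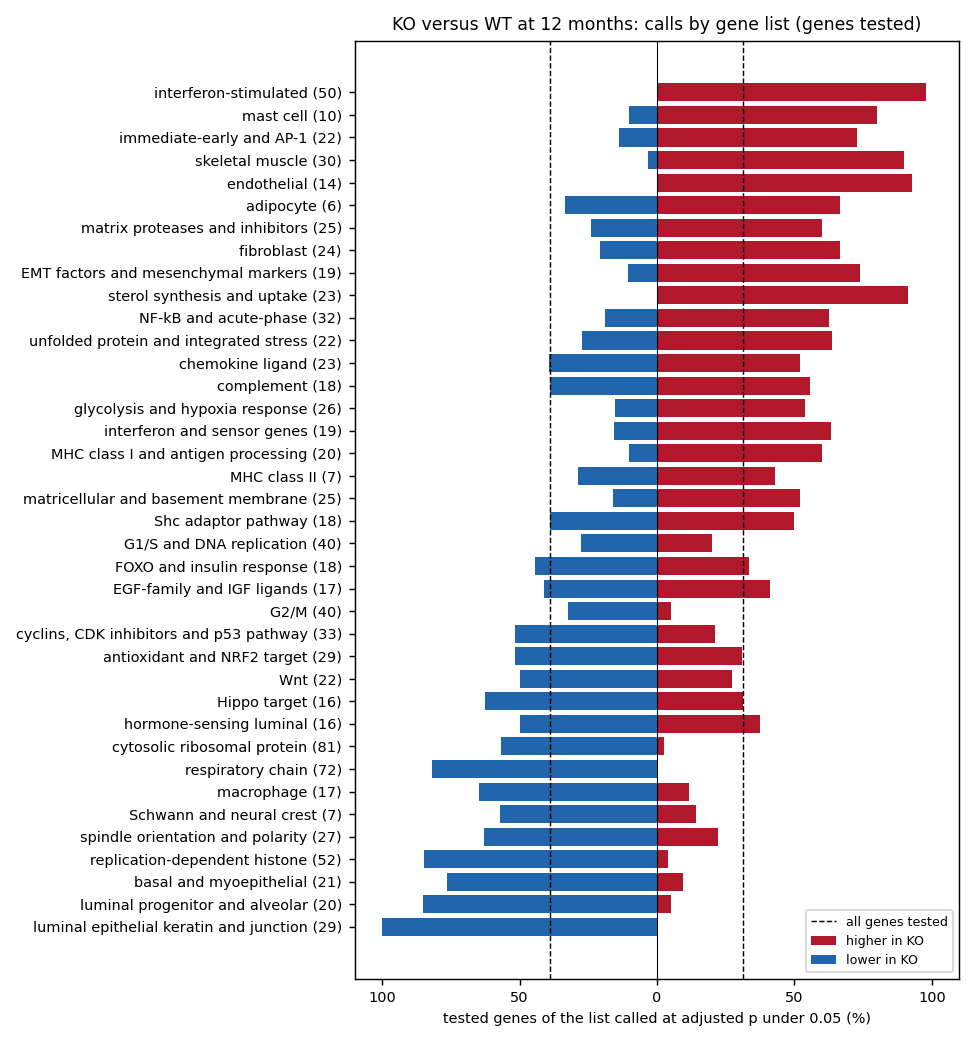
Share of the tested genes of each gene list called higher (bars to the right) or lower (bars to the left) in KO than WT at 12 months, in percent, for lists with at least 5 genes tested. Dashed lines mark the shares over all genes tested, 31.3% higher and 38.9% lower. The luminal keratin and junction list is wholly on the lower side and 98% of the interferon-stimulated list is on the higher side.

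Luminal epithelial genes showed the largest fall of any list. All 29 luminal keratin and junction genes were lower in KO, against 38.9% of all genes, with a median log2 change of -2.79. Krt18, a simple keratin of luminal cells (chromosome 15, 102028215 to 102032026, plus strand), was 1146, 1066 and 1239 CPM in the WT libraries and 121, 119 and 116 CPM in the KO libraries (log2 change -3.27 ± 0.08 SE, adjusted p = 4.75e-12). Its partner keratin Krt8 was 489.9, 511 and 514 CPM in the WT libraries and 58.2, 54.4 and 68.2 CPM in the KO libraries (log2 change -3.06 ± 0.14 SE, adjusted p = 3.7e-10). The 2 groups lay far apart for both keratins, and within a group the libraries were close together. Krt7, another simple keratin, changed by -3.65, and the adherens junction gene Cdh1, the epithelial adhesion gene Epcam, the claudin Cldn4, the surface marker Cd24a and the tight-junction scaffold Tjp3 changed by -2.79, -2.74, -2.88, -2.68 and -3.72. The summed CPM of the list was 4981 to 5101 in WT and 618 to 675 in KO, against 425 to 511 in WT and 557 to 641 in KO at 2 months. KO at 12 months thus lay near the levels of both genotypes at 2 months, while WT at 12 months stood above all other groups. In bulk RNA, fewer luminal cells and less luminal RNA per cell cannot be told apart.

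Luminal progenitor and alveolar genes fell with the keratins. Of 20 tested, 17 were lower and 1 higher, with a median of -2.10, and 3 further genes were below the filter. The largest fall on the log2 scale among the genes tested was that of the milk casein gene Csn3 (chromosome 5, 87925632 to 87932264, plus strand), which was 119, 119 and 122 CPM in the WT libraries and 0.535, 0.827 and 0.387 CPM in the KO libraries (log2 change -6.82 ± 0.11 SE, adjusted p = 2.98e-13). At 2 months Csn3 was 37.9, 32.9 and 33.3 CPM in WT and 33, 33.1 and 33.7 CPM in KO, and the genotypes overlapped (log2 -0.06, adjusted p = 0.803). The lactoferrin gene Ltf was 481, 488 and 569 CPM in the WT libraries and 47.2, 64.1 and 45.5 CPM in the KO libraries (log2 change -3.30 ± 0.13 SE, adjusted p = 1.33e-10). The KO libraries were far below the WT libraries for Ltf, and the alveolar factor Elf5 went from 48.7, 49.2 and 49.1 CPM in WT to 7.39, 9.1 and 6.52 CPM in KO (log2 change -2.61 ± 0.12 SE, adjusted p = 4.71e-10). The ETS factor Ehf and the secreted Lcn2 changed by -2.74 and -2.32, while the receptor gene Kit moved less (log2 change -0.47 ± 0.07 SE, adjusted p = 8.95e-05). Xdh, a milk fat globule enzyme, was the higher gene (0.52). Outside the lists, the largest falls included the kelch gene Klhdc7a, which was 156, 158 and 168 CPM in the WT libraries and 2.37, 3.5 and 2.41 CPM in the KO libraries (log2 change -5.65 ± 0.11 SE, adjusted p = 9.95e-13), the mucus protein gene Fcgbp (-4.29), the sodium channel subunit Scnn1a (-3.81) and Arg1, which encodes arginase (54.9, 56.1 and 57.1 CPM in the WT libraries and 3.21, 3.26 and 2.76 CPM in the KO libraries, log2 change -3.99 ± 0.11 SE, adjusted p = 1.12e-11).

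**Figure D2:**
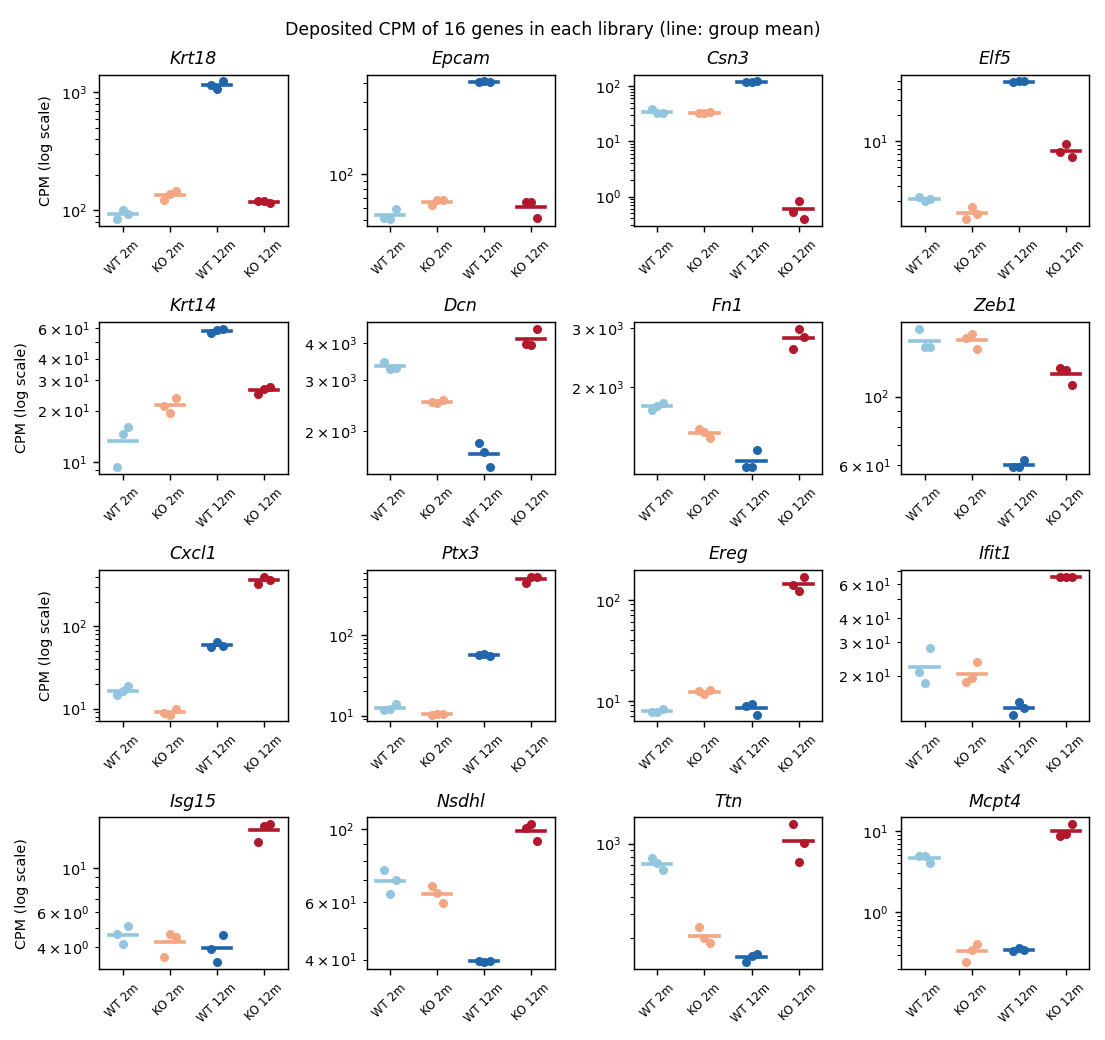
Deposited CPM on a log axis for 16 genes in each of the 12 libraries, by genotype and age (2m, 2 months; 12m, 12 months), with a line at each group's mean. Krt18 stands between 1066 and 1239 CPM in WT at 12 months and between 84.2 and 145.0 CPM in all other libraries, while Cxcl1 is highest in KO at 12 months.

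Hormone-sensing luminal genes moved in both directions. Of 16 tested, 6 were higher (37.5%) and 8 lower (50%), against 31.3% and 38.9% over all genes, with a median of -0.41. With most genes called, calls in both directions do not set this list apart. The luminal factor Gata3 was 11.5, 12.1 and 11.2 CPM in the WT libraries and 1.78, 2.36 and 1.67 CPM in the KO libraries (log2 change -2.32 ± 0.12 SE, adjusted p = 1.34e-09), and the prolactin receptor gene Prlr changed by -1.52. The oestrogen receptor gene Esr1 was 1.67, 1.49 and 1.4 CPM in the WT libraries and 2.98, 3.8 and 2.43 CPM in the KO libraries (log2 change 0.81 ± 0.16 SE, adjusted p = 0.000562), and Tnfsf11, which encodes RANKL, changed by 2.13. Prlr and Gata3 were thus lower in KO, and Esr1 and Tnfsf11 higher.

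Basal and myoepithelial genes were lower in 16 of 21 cases and higher in 2, with a median of -1.10. The neural crest and stem cell factor Sox10 was 49.7, 52 and 49.1 CPM in the WT libraries and 3.49, 3.45 and 4.13 CPM in the KO libraries (log2 change -3.60 ± 0.15 SE, adjusted p = 2.21e-10), and the basal keratins Krt14 and Krt17 changed by -1.12 and -2.89. The laminin receptor subunit Itgb4 changed by -2.72 and smooth muscle actin Acta2 by -1.71. Trp63, the basal lineage factor, was low in all libraries and was 3.94, 4.35 and 4.01 CPM in the WT libraries and 2.01, 2.69 and 0.89 CPM in the KO libraries (log2 change -1.04 ± 0.23 SE, adjusted p = 0.00118), with KO replicate 3 the lowest. The 2 higher genes were the protein C receptor gene Procr (0.41) and the desmocollin Dsc3 (0.67).

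Fibroblast and mesenchymal genes rose. Of 24 fibroblast genes 16 were higher and 5 lower, with a median of 0.75, and of 19 tested EMT (epithelial to mesenchymal transition) genes 14 were higher and 2 lower, also with a median of 0.75, against 31.3% higher over all genes. The proteoglycan gene Dcn (chromosome 10, 97479499 to 97518162, plus strand) was 1827, 1698 and 1512 CPM in the WT libraries and 3988, 3945 and 4477 CPM in the KO libraries (log2 change 1.30 ± 0.07 SE, adjusted p = 3.52e-09). The receptor Pdgfra was 394, 382 and 394 CPM in the WT libraries and 938, 899.7 and 1015 CPM in the KO libraries (log2 change 1.28 ± 0.05 SE, adjusted p = 2.03e-10), and the transcription factors Zeb1 and Zeb2, which repress epithelial genes, changed by 0.97 and 1.41. In each of these 4 genes all KO libraries exceeded all WT libraries. The intermediate filament gene Vim changed by 0.75 and fibronectin Fn1 by 1.21. The collagen gene Col3a1 went the other way (3331, 3289 and 3355 CPM in the WT libraries and 2209.6, 2576 and 2657 CPM in the KO libraries, log2 change -0.43 ± 0.08 SE, adjusted p = 0.000529), as did the fibroblast protease Fap (-1.10) and the cytokine gene Tgfb3 (-2.10). The summed CPM of the fibroblast list was 22112 to 22744 in WT and 34219 to 38007 in KO at 12 months and 29687 to 32843 in WT and 30240.3 to 32916 in KO at 2 months, so fibroblast genes were abundant in all groups of a culture labelled as mammospheres.

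Matrix genes divided. Of 25 protease and inhibitor genes 15 were higher and 6 lower (median 0.76), and of 25 matricellular and basement membrane genes 13 were higher and 4 lower (median 0.25). The stromelysin gene Mmp3 was 2506, 2333 and 2496 CPM in the WT libraries and 6921, 6721 and 6588 CPM in the KO libraries (log2 change 1.46 ± 0.06 SE, adjusted p = 1.69e-10), and Mmp19 changed by 2.28 and the aggrecanase Adamts5 by 2.65. The protease inhibitor genes Serpina3n and Serpinb2 changed by 3.17 and 3.28, and Serpina3n belongs to a family of close copies, so its reads may be split among them. The muscle-type laminin Lama2 was 339, 323 and 355 CPM in the WT libraries and 1650.2, 1615 and 1634 CPM in the KO libraries (log2 change 2.27 ± 0.06 SE, adjusted p = 4.75e-12). The epithelial laminin Lama5 and the membrane-bound protease Mmp15 were lower instead (-2.33 and -3.19).

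Genes of inflammation were higher in KO. Of 32 NF-kB and acute-phase genes, which answer to cytokines and injury, 20 were higher and 6 lower, with a median of 0.54. The pentraxin Ptx3 (chromosome 3, 66219886 to 66225806, plus strand) was 57.1, 58.1 and 54.6 CPM in the WT libraries and 440.4, 533 and 525 CPM in the KO libraries (log2 change 3.12 ± 0.08 SE, adjusted p = 4.77e-12). Saa3, an acute-phase protein gene, was 145, 145 and 167 CPM in the WT libraries and 778, 799 and 858 CPM in the KO libraries (log2 change 2.41 ± 0.06 SE, adjusted p = 4.75e-12). Il6, which encodes the cytokine interleukin 6, was 5.45, 5.99 and 4.49 CPM in the WT libraries and 22.6, 50.7 and 22.8 CPM in the KO libraries (log2 change 2.39 ± 0.24 SE, adjusted p = 1.18e-06). The Il6 values of KO were all above those of WT, and KO replicate 2 stood above the other KO replicates. The regulator Nfkbiz and the feedback inhibitor Tnfaip3 changed by 1.79 and 1.17. Lcn2, a target that luminal cells also express, was the member with the largest fall.

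Chemokine ligands moved in both directions, with 12 higher (52.2%) and 9 lower (39.1%) of 23 tested (median 0.35). The shares over all genes were 31.3% and 38.9%. The neutrophil attractants Cxcl1 and Cxcl2 rose. Cxcl1 was 56.1, 64.1 and 57.8 CPM in the WT libraries and 322, 400.0 and 368 CPM in the KO libraries (log2 change 2.60 ± 0.10 SE, adjusted p = 1.13e-10), and Cxcl2 was 7.62, 8.51 and 7.5 CPM in the WT libraries and 75.5, 81.9 and 82.1 CPM in the KO libraries (log2 change 3.26 ± 0.09 SE, adjusted p = 1.35e-11). The monocyte attractant Ccl2 changed by 1.17, whereas the mucosal chemokine Cxcl17 and the membrane-bound Cx3cl1 were lower (-2.98 and -1.68). Complement genes were likewise divided, with 10 higher (55.6%) and 7 lower (38.9%) of 18. The alternative pathway gene Cfb and the inhibitor Serping1 changed by 2.23 and 2.25 and the central component C3 by 1.53.

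The most uniform rise was that of the interferon-stimulated genes, which interferon receptors induce through a complex that holds Stat2 and Irf9. Of 50 genes 49 were higher and 0 lower, with a median of 1.33, against 31.3% higher over all genes. The exception, Ifi35, changed by -0.16 (adjusted p = 0.105) and was singled out after its value was seen. Without TMM scaling 48 were higher and 1 lower. Promoters of 3 of the genes are shown because the members moved together, as the 250 bases before each RefSeq start on GRCm38.p6. Capitals mark matches on either strand to the interferon-stimulated response element, spelled as GAAA, then 2 of any base, then GAAA. Isg15 lies at chr4:156200819-156201068 on the minus strand, with 3 overlapping matches that start 78, 72 and 66 bases before the gene start. Ifit1 lies at chr19:34640639-34640888 on the plus strand, with 2 matches, and Rsad2 at chr12:26456453-26456702 on the minus strand, with 1.
Isg15: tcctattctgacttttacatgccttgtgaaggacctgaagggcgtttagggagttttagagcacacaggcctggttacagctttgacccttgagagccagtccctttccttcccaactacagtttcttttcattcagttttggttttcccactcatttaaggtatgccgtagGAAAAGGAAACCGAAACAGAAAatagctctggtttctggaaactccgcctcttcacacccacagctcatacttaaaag
Ifit1: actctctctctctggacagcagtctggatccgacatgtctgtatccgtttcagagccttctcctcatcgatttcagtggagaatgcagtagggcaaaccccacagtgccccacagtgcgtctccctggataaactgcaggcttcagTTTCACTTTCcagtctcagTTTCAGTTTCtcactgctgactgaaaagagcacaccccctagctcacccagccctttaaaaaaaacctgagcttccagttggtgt
Rsad2: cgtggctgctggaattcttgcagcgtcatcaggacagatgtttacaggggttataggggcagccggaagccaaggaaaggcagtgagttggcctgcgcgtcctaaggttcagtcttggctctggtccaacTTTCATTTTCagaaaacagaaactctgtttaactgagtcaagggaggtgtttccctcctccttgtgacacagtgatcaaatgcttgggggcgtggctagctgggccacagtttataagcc

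Of the 50 genes, 35 matched a RefSeq window that runs from 250 bases before to 50 bases after the start, and 19 of these (54.3%) held the element, against 3.49% of all 27025 windows. A match is a description of the letters in the window. Isg15, a ubiquitin-like modifier, was 3.91, 3.37 and 4.61 CPM in the WT libraries and 13.5, 16.3 and 16.5 CPM in the KO libraries (log2 change 1.84 ± 0.13 SE, adjusted p = 3.35e-08). The antiviral gene Ifit1 was 12.5, 14.6 and 13.6 CPM in the WT libraries and 65.3, 64.8 and 65 CPM in the KO libraries (log2 change 2.22 ± 0.13 SE, adjusted p = 4.57e-09), and Rsad2, which encodes viperin, was 12.2, 13.9 and 12.9 CPM in the WT libraries and 83, 86.8 and 83.1 CPM in the KO libraries (log2 change 2.65 ± 0.12 SE, adjusted p = 3.22e-10). The groups did not overlap for any of these, as for most genes tested. The RNA sensor synthase Oas2 and the gene Ifi44, each induced by interferon, changed by 2.52 and 2.85. The transcription factor Irf7 changed by 1.36.

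A mixed list held interferon genes, receptors for interferons and other cytokines such as IL-6, IL-1 and TNF, and innate immune sensors with their adaptors. Of its 19 tested genes 12 were higher and 3 lower, so this count is not specific to interferon signalling. The sensor adaptor Tmem173 (STING) was 43.8, 39.9 and 42.6 CPM in the WT libraries and 86.3, 93.6 and 92.2 CPM in the KO libraries (log2 change 1.10 ± 0.05 SE, adjusted p = 1.13e-09), while the double-stranded RNA receptor Tlr3 and the factor Irf3 changed by -1.02 and -1.10. In the MHC class I and antigen processing list 12 of 20 were higher and 2 lower (median 0.30), with the light chain B2m at 1412, 1485 and 1323 CPM in the WT libraries and 2366, 2528 and 2665 CPM in the KO libraries (log2 change 0.84 ± 0.06 SE, adjusted p = 4.34e-08) and the peptide transporter Tap2 at -0.59. Without TMM scaling that list had 9 higher and 4 lower.

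Immediate-early genes rose too. Of 22 immediate-early and AP-1 genes, which cells transcribe within minutes of a stimulus, 16 were higher and 3 lower, with a median of 1.10. Fosb, an AP-1 subunit and the gene with the largest rise, was 4.42, 5.99 and 5.09 CPM in the WT libraries and 92.3, 112 and 122 CPM in the KO libraries (log2 change 4.27 ± 0.17 SE, adjusted p = 1.43e-10). The zinc-finger factor Egr1 was 10.1, 13.7 and 12.9 CPM in the WT libraries and 82.1, 81.8 and 88.3 CPM in the KO libraries (log2 change 2.74 ± 0.10 SE, adjusted p = 6.7e-11). The nuclear receptor Nr4a1 and the factor Klf2 changed by 3.53 and 3.48, and Myc by 0.95. The members named here all rose, but the lowest change in the list was -2.10, and 1 gene was called with a fall of more than 1. The EGF-family ligand Ereg was 8.78, 9.35 and 7.3 CPM in the WT libraries and 140.4, 123 and 169 CPM in the KO libraries (log2 change 4.0 ± 0.11 SE, adjusted p = 1.12e-11), and its receptor Egfr was 536, 511 and 528 CPM in the WT libraries and 1286, 1352 and 1404 CPM in the KO libraries (log2 change 1.36 ± 0.05 SE, adjusted p = 9.88e-11). The ligand Tgfa and the receptor Erbb3 went down (-1.58 and -2.57). Of the 17 EGF-family and IGF genes 7 were higher (41.2%) and 7 lower (41.2%), against 31.3% and 38.9% over all genes, with a median of -0.12.

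Sterol synthesis and uptake genes were higher in KO in 21 of 23 cases and lower in none, with a median of 0.65. Their summed CPM was 2544 to 2646 in WT and 4449 to 4621 in KO. At 2 months it was 3827 to 4019 in WT and 3710 to 4003 in KO, so WT at 12 months was the lowest group. Insig1, a brake on the pathway, was 256, 251 and 226 CPM in the WT libraries and 524, 493 and 536 CPM in the KO libraries (log2 change 1.08 ± 0.06 SE, adjusted p = 4.5e-09), and the demethylation enzyme Nsdhl was 39.6, 39.3 and 39.6 CPM in the WT libraries and 101, 104 and 92.3 CPM in the KO libraries (log2 change 1.31 ± 0.07 SE, adjusted p = 1.74e-09). The groups did not overlap for either gene. The 2 genes not called were Mvk (log2 -0.24) and Srebf2 (log2 0.19), singled out after their values were seen, and without TMM scaling 18 genes of the list were higher and 1 lower. The promoters of 2 of them are shown in the same way, with capitals at CCAAT on either strand. Nsdhl lies at chrX:72918271-72918520 on the plus strand, with 2 matches, and Insig1 at chr5:28071162-28071411 on the plus strand, with 1.
Nsdhl: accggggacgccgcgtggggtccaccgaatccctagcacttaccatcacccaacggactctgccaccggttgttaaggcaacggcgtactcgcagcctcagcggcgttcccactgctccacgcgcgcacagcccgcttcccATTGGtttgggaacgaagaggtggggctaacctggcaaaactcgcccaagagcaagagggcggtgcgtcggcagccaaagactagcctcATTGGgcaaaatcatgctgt
Insig1: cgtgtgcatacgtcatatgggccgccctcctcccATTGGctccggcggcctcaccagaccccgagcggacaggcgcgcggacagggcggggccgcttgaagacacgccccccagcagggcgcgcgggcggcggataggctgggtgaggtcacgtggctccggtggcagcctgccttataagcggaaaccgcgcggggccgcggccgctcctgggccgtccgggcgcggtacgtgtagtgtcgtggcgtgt

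Of the 15 sterol genes that matched a window, 13 (86.7%) held CCAAT, against 37.9% of all windows.

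Genes of the respiratory chain, the ribosome and the histones were lower in KO. Of 72 respiratory chain genes 59 were lower and none higher (median -0.44), of 81 cytosolic ribosomal protein genes 46 were lower and 2 higher (median -0.43), and of 52 replication-dependent histone genes 44 were lower and 2 higher (median -1.0). Ndufb7, a subunit of complex I, was 46.4, 49.8 and 51.7 CPM in the WT libraries and 14.7, 21.2 and 27.2 CPM in the KO libraries (log2 change -1.25 ± 0.25 SE, adjusted p = 0.000604). The ribosomal protein gene Rps21 was 15.2, 16.8 and 18.2 CPM in the WT libraries and 4.54, 5.95 and 8.66 CPM in the KO libraries (log2 change -1.36 ± 0.23 SE, adjusted p = 0.000124), and the RNase P RNA gene Rpph1, the gene most abundant in WT among those that fell by more than 2 on the log2 scale, was 4629, 7213 and 5709 CPM in the WT libraries and 978, 1036 and 2655 CPM in the KO libraries (log2 change -2.05 ± 0.49 SE, adjusted p = 0.00223). In all 3 genes KO replicate 3, the most deeply sequenced library, lay nearest to WT. Many ribosomal protein and histone genes have near-identical copies, so their single values are uncertain.

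Length and base composition moved with the genotype difference. Across 5 groups of equal size of the 13159 genes with a transcript length in GENCODE vM21 (94.26% of those tested), the median change ran from -0.24 in the shortest to 0.15 in the longest, and from 0.14 in the group with the least GC to -0.41 in that with the most. In the GC-richest group the median was -0.54 in KO replicate 1, -0.42 in replicate 2 and -0.27 in replicate 3. With this trend removed in each library, an alternative chosen after seeing the data, 9538 of 13159 genes were called. The respiratory chain then had 46 lower and 3 higher genes, the ribosomal proteins 31 and 3 and the histones 29 and 5. The interferon list had 49 higher and 0 lower, the luminal list 0 higher and 29 lower and the sterol list 22 higher and 0 lower.

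**Figure D3:**
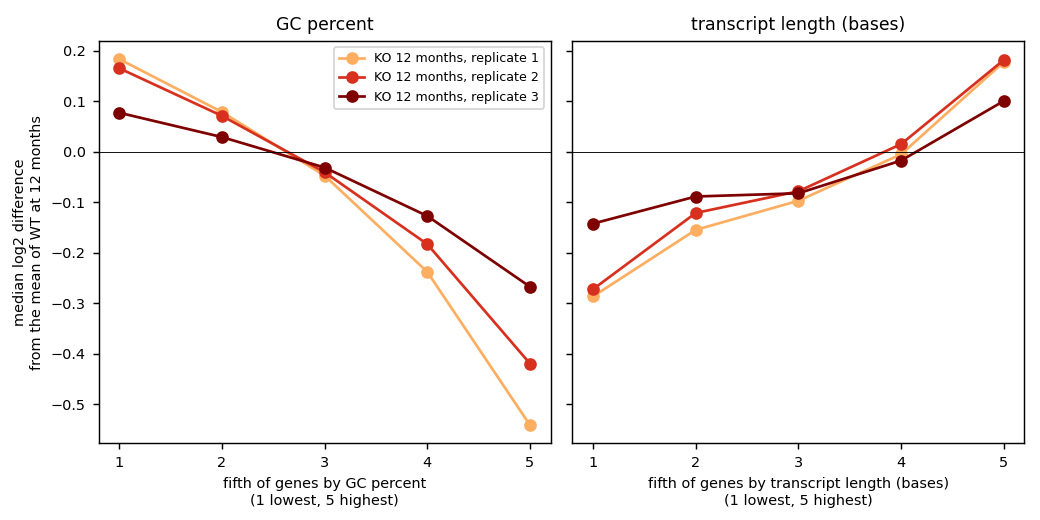
Median log2 difference of each KO library at 12 months from the mean of the WT libraries, over 5 groups of genes by GC percent and by transcript length of the longest transcript. The lines fall with GC and rise with length in all 3 libraries, most steeply in replicate 1 and least in replicate 3.

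The calls among cell division genes depended on the scaling. Of 40 G2/M genes 13 were lower (32.5%) and 2 higher (5%), and 25 were not called, with a median of -0.13. Both shares were below the 38.9% lower and 31.3% higher over all genes. Without KO replicate 2 the counts were 20 lower and 1 higher, and without KO replicate 3 they were 9 and 9. Without TMM scaling 21 were lower and 0 higher, with quantile normalization 6 were lower and 7 higher, and with the GC and length trend removed 19 were lower and 0 higher. The anaphase activator Cdc20 was 21.4, 21.8 and 20.6 CPM in the WT libraries and 9.36, 12.9 and 8.77 CPM in the KO libraries (log2 change -1.02 ± 0.12 SE, adjusted p = 4.53e-06). The proliferation marker Mki67 was 136, 133 and 142 CPM in the WT libraries and 185, 191 and 131 CPM in the KO libraries (log2 change 0.28 ± 0.12 SE, adjusted p = 0.0534) and did not pass the test. KO replicate 3 was below all WT libraries and the other KO libraries were above them. Without KO replicate 3 the change of Mki67 was 0.46 and passed the test (limma, adjusted p = 0.000513). Of 40 G1/S and replication genes 8 were higher (20%) and 11 lower (27.5%), shares also below those over all genes, and the sign of their median changed with the scaling. In the cyclin, CDK inhibitor and p53 pathway list 7 of 33 were higher (21.2%) and 17 lower (51.5%), against 31.3% and 38.9% over all genes. The median of that list was -0.18. Cdkn2a, which encodes p16 and p19Arf, was 15.9, 17 and 12.7 CPM in the WT libraries and 2.19, 3.24 and 3.71 CPM in the KO libraries (log2 change -2.16 ± 0.24 SE, adjusted p = 2.59e-06). Cyclin D1 and cyclin D2 moved in opposite directions, Ccnd1 by -0.77 and Ccnd2 by 1.13. Among p53 targets, the desmosome gene Perp and the apoptosis gene Bbc3 were lower (-2.46 and -1.76) and Zmat3 was higher (1.04). These p53 targets were named for the size of their change, Perp being the lowest of the list, and do not stand for p53 targets as a whole.

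Genes of spindle orientation and polarity, which the title of the series concerns, were lower in 17 of 27 cases and higher in 6, with a median of -0.51. Insc, which encodes Inscuteable, was below the filter, with 35, 15 and 19 reads in WT and 2, 9 and 14 reads in KO. These are 0.556, 0.361 and 0.544 CPM in the WT libraries and 0.051, 0.213 and 0.135 CPM in the KO libraries, and the groups did not overlap (exact two-sided permutation test, p = 0.1, the smallest that 3 against 3 allows). In the fit without a filter the log2 change of Insc was -0.64 ± 0.11 (limma, adjusted p = 0.000431). Numb, an inhibitor of Notch that dividing cells segregate, was 48.2, 47.3 and 47.7 CPM in the WT libraries and 33.9, 32.7 and 33.6 CPM in the KO libraries (log2 change -0.51 ± 0.06 SE, adjusted p = 2.47e-06). Gpsm2, which encodes LGN, was 27.7, 29.3 and 32 CPM in the WT libraries and 31.6, 33.7 and 28.1 CPM in the KO libraries (log2 change 0.07 ± 0.08 SE, adjusted p = 0.468) and did not pass the test. The apical polarity genes Crb3, Pard6b and Prkcz changed by -3.19, -2.68 and -2.53, and Pard3b by 1.64. The epithelial list fell beside these apical genes, and its part in the result was not tested.

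In the Shc adaptor pathway 9 of 18 genes were higher (50%) and 7 lower (38.9%), against 31.3% and 38.9% over all genes. Without TMM scaling 6 were higher and 9 lower, with the median of the list moving from 0.06 to -0.13. Gab2, a docking adaptor, was at 59.8, 59.3 and 60.5 CPM in the WT libraries and 122, 121 and 116 CPM in the KO libraries (log2 change 0.99 ± 0.05 SE, adjusted p = 2.69e-09). Of 29 antioxidant and NRF2 target genes 9 were higher (31.0%) and 15 lower (51.7%), with a median of -0.19. The cystine transporter Slc7a11 was 149, 155 and 131 CPM in the WT libraries and 430.3, 399.8 and 364 CPM in the KO libraries (log2 change 1.46 ± 0.07 SE, adjusted p = 1.02e-09), while the glutathione transferase Gsta4 and the lipid peroxide reductase Gpx4 changed by -3.11 and -1.39. The ferritin heavy chain Fth1 was higher (1.30) and the light chain Ftl1 lower (-1.04). Of 18 FOXO and insulin response genes 6 were higher (33.3%) and 8 lower (44.4%), shares near those over all genes, with Foxo3 among the lower (-0.92).

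Markers of other cell types differed between the groups, and their part in the results above was not tested. Skeletal muscle genes were higher in 27 of 30 cases, with a median of 1.09, the giant sarcomere protein Ttn being 133, 148 and 153 CPM in the WT libraries and 1389, 731 and 1018 CPM in the KO libraries (log2 change 2.80 ± 0.18 SE, adjusted p = 1.08e-08). Their summed level was 319 to 345 in WT and 1057 to 1947 in KO, against 1600 to 1918 in WT and 491 to 524 in KO at 2 months. The adult myosin Myh4 was lower (-1.48) and the embryonic myosin Myh3 higher (2.27), and KO replicate 2 was the lowest KO library for Ttn and Myh3. Mast cell genes rose in 8 of 10 cases (median 1.17), the protease genes Mcpt4 and Cpa3 among them. The receptor gene Kit, also a member of this list, was the 1 called lower (-0.47). Mcpt4 was 0.334, 0.361 and 0.343 CPM in the WT libraries and 8.54, 9.28 and 12 CPM in the KO libraries (log2 change 3.61 ± 0.13 SE, adjusted p = 8.1e-11), and Cpa3 was 10.3, 12.6 and 11.4 CPM in the WT libraries and 73.9, 74.8 and 80.8 CPM in the KO libraries (log2 change 2.69 ± 0.09 SE, adjusted p = 4.07e-11). Endothelial genes were higher in 13 of 14 cases (median 0.95), and the junction genes Pecam1 and Cdh5 changed by 1.28 and 1.46. Macrophage genes were lower in 11 of 17 cases and higher in 2 (median -0.46), the complement subunit C1qa being 53.1, 57.8 and 63.7 CPM in the WT libraries and 18.1, 9.66 and 25.7 CPM in the KO libraries (log2 change -1.78 ± 0.28 SE, adjusted p = 8.45e-05) and the lysozyme Lyz2 changing by -1.25, while the mannose receptor Mrc1 was higher (1.23). The summed macrophage level was 1240.1 to 1286 in WT and 541 to 991 in KO. Of 6 adipocyte genes tested 4 were higher and 2 lower (median 0.76), with a summed level of 648 to 676 in WT and 1181 to 1206 in KO, while the defining marker Plin1, below the filter, stayed at or under 0.087 CPM in all 6 libraries. Of the lymphocyte genes 11 were below the filter and 1 of the 2 tested was higher, with a summed CPM over all members in the table of 2.07 to 2.21 in WT and 3.4 to 6.01 in KO. The T cell marker Cd3e had no read in WT and at most 0.087 CPM in KO.

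Fewer genes were called between the genotypes at 2 months. There 2245 genes (16.1%) were called, 259 higher (1.86%) and 1986 lower (14.2%), and with TMM recomputed over the 12 libraries 1458 were called, 426 higher and 1032 lower. The comparisons at the 2 ages share no library. Of the genes called at 12 months 1782 (18.2%, and 79.4% of those called at 2 months) were called at both ages. They comprised 587 lower at both, 105 higher at both, 986 lower at 2 months and higher at 12 months, and 104 higher at 2 months and lower at 12 months. These overlaps rest on the deposited scaling, under which most calls at 2 months were lower. The difference between the ages was itself called for 8051 genes (57.7%), 4388 upward (31.4%) and 3663 downward (26.2%), and without TMM scaling for 9147, 2648 upward and 6499 downward. Muscle genes are an example of opposite directions, since all 30 were lower in KO at 2 months (median -1.68). Mast cell genes were also lower in 9 of 10 cases at 2 months. Mcpt4 was 4.98, 4.9 and 4.06 CPM in WT and 0.243, 0.345 and 0.411 CPM in KO at that age, so WT at 2 months lay between the genotypes at 12 months. Interferon-stimulated genes were lower in 27 of 50 cases at 2 months, with a median of -0.28, against 14.2% lower and a median of -0.09 over all genes. With TMM recomputed over the 12 libraries the median over all genes at 2 months was -0.004. The lists were not counted at 2 months under other scalings, so how far this fall depends on the scaling was not tested.

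There were 6 genes that changed by more than 2 on the log2 scale in the same direction at both ages. Over all genes, called changes past 2 were 1.07% rises and 2.79% falls at 12 months and 0.0143% rises and 0.086% falls at 2 months. Of the 6, 5 lie on chromosome 3, which carries Shc1 and holds 695 (4.98%) of the genes tested. Crct1, Lce3a and Rbm46 were singled out after their values were seen. Cd5l, a secreted scavenger receptor protein (chromosome 3, 87357880 to 87371074, plus strand), was 19.9, 24.5 and 28.4 CPM in WT and 0.688, 0.591 and 0.909 CPM in KO at 12 months and 19.4, 17.9 and 17.9 CPM in WT and 1.24, 1.1 and 1.34 CPM in KO at 2 months. Crct1, an epidermal gene (chromosome 3, 93014204 to 93015686, minus strand), was 26.5, 23.3 and 25.4 CPM in WT and 2.5, 2.39 and 2.72 CPM in KO at 12 months and 21.6, 20.5 and 24 CPM in WT and 1.14, 0.928 and 1.16 CPM in KO at 2 months. Rbm46, an RNA-binding protein gene (chromosome 3, 82837232 to 82876483, minus strand), was higher in KO, with 1.18, 0.769 and 1.34 CPM in WT and 9.18, 7.46 and 9.47 CPM in KO at 12 months and 2.23, 1.09 and 2 CPM in WT and 15.2, 14.6 and 14.8 CPM in KO at 2 months. Neither age showed an overlap between the genotypes for these genes. They lie 2.06 Mb before, 3.60 Mb after and 6.58 Mb before the start of Shc1. Lce3a, a late cornified envelope gene, had no read in KO at 12 months and 2.46, 2.36 and 2.09 CPM in WT, at least 39.2-fold lower in KO against a floor of 3 reads per library. Rps3a1 on chromosome 3 (log2 change -5.68 ± 0.39 SE, adjusted p = 2.23e-08) and the histone gene Hist1h4m on chromosome 13, which had no read in KO at 12 months, complete the 6. Both have near-identical copies elsewhere in the genome, so their values are uncertain.

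**Figure D4:**
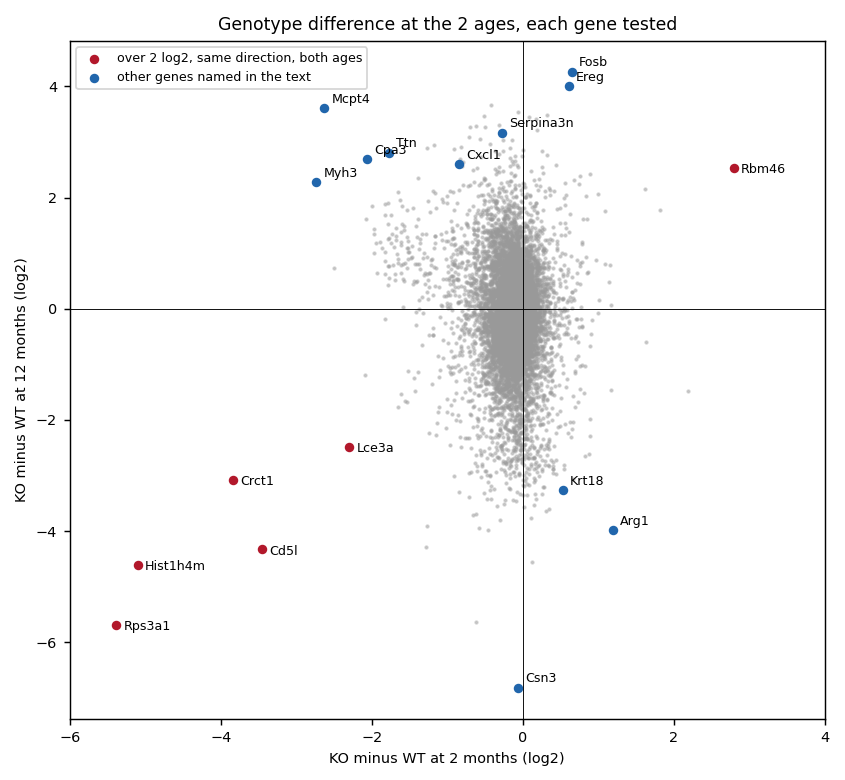
Log2 difference between KO and WT at 2 months (horizontal) and 12 months (vertical) for each gene tested, with 6 genes over 2 in the same direction at both ages in red and other genes named in the text in blue. Csn3 lies lowest on the 12-month axis and near 0 at 2 months, Krt18 is at -3.27 and 0.53, and Mcpt4, Cpa3, Ttn and Myh3 lie in the part of the plot that is lower at 2 months and higher at 12 months.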

How the data were processed

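RNA of 12 mammosphere cultures was extracted with a PicoPure kit and made into TruSeq Stranded total RNA libraries, per the labels' protocols. Per the submitters' processing notes, TopHat2 2.1.0, Bowtie2 2.2.4, SAMtools 0.1.18 and HTSeq 0.6.1p1 were used with mm10. For annotation, strand option and multi-mapped reads, the settings were not given in the sources used here. In the 1 table that the authors deposited, values are CPM scaled by TMM, per the file headers, treated here as a signal because the columns do not share 1 TMM scale. Values were whole multiples of 1 read within 0.1 read in 100% of cases, which gave the library totals and read counts. Depth ran from 31845169 to 109079737 reads.

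Genes averaging 0.5 CPM or more were fitted on log2(CPM + 0.5) with limma 3.58.1 (R 4.3.3, mean-variance trend, 4 groups, 12 libraries, 8 residual degrees of freedom). Benjamini-Hochberg adjustment ran over all 13961 genes. The script was tested on simulated data. Alternatives used other scalings, pseudocounts, filters, edgeR 4.0.16, DESeq2 1.42.0, a replicate block and each library left out. Groups came from the labels.

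Genes were named by a rule that took the 12 largest rises and falls, the 8 most abundant genes changed by more than 1 in each direction, the 6 largest differences between ages in each direction, and per list the marked members plus up to 4 called members in the direction of the median and 2 in the other. The members and the 39 lists were chosen with earlier results of these data known. The removal of GC and length trends was added after seeing the data.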

Additional observations from a re-analysis of the deposited data

Results flagged for a closer look

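The test of the difference between the ages, an interaction term in limma over the 12 libraries, called 8051 of 13961 genes (57.7%). The genes below are those named in the text that it called. Many were named for their change at 12 months, and the term uses the same libraries. A call here is therefore no separate support and does not set these genes apart. Each is given as the KO minus WT change at 12 months minus that at 2 months on the log2 scale. No explanation of these differences was tested.

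For luminal keratin and junction genes the difference was negative for Krt18 (-3.80), Krt8 (-3.73), Krt7 (-3.96), Cldn4 (-3.28), Cdh1 (-2.95), Epcam (-3.04), Cd24a (-2.75) and Tjp3 (-3.06). For spindle orientation and polarity genes the difference was positive for Pard3b (1.88). Also for spindle orientation and polarity genes the difference was negative for Crb3 (-3.21), Pard6b (-2.83), Prkcz (-2.88) and Numb (-0.40). For luminal progenitor and hormone-sensing genes the difference was positive for Kit (0.72), Xdh (1.08), Esr1 (1.02) and Tnfsf11 (1.78). Also for luminal progenitor and hormone-sensing genes the difference was negative for Csn3 (-6.76), Ltf (-2.45), Elf5 (-2.18), Ehf (-2.58), Lcn2 (-1.48), Gata3 (-2.13) and Prlr (-1.07). For basal genes the difference was positive for Procr (0.73) and Dsc3 (0.76). Also for basal genes the difference was negative for Sox10 (-3.95), Krt14 (-1.82), Krt17 (-3.29), Itgb4 (-2.98) and Acta2 (-1.89). For mesenchymal and matrix genes the difference was positive for Dcn (1.71), Pdgfra (1.49), Zeb1 (0.96), Zeb2 (1.47), Vim (0.81), Fn1 (1.47), Lama2 (2.27) and Mmp3 (2.0). Also for mesenchymal and matrix genes the difference was positive for Mmp19 (2.49), Adamts5 (2.75), Serpina3n (3.44), Serpinb2 (3.91) and Axl (1.72). Also for mesenchymal and matrix genes the difference was negative for Col3a1 (-0.61), Fap (-1.22), Tgfb3 (-2.24), Lama5 (-1.73) and Mmp15 (-2.77). For inflammatory genes the difference was positive for Ptx3 (3.40), Saa3 (2.52), Il6 (1.63), Nfkbiz (1.99), Tnfaip3 (1.48), Cxcl1 (3.44), Cxcl2 (3.95) and Ccl2 (1.43). Also for inflammatory genes the difference was positive for C3 (3.31), Cfb (3.02) and Serping1 (2.69). Also for inflammatory genes the difference was negative for Cxcl17 (-3.01) and Cx3cl1 (-1.63). For interferon and antigen presentation genes the difference was positive for Isg15 (1.96), Ifit1 (2.33), Rsad2 (2.80), Oas2 (2.89), Ifi44 (3.21), Irf7 (1.71), Tmem173 (1.17) and B2m (1.14). Also for interferon and antigen presentation genes the difference was negative for Tlr3 (-1.0) and Irf3 (-0.89). For immediate-early genes and EGF-family ligands and receptors the difference was positive for Fosb (3.62), Egr1 (2.75), Nr4a1 (3.59), Klf2 (3.16), Myc (0.97), Ereg (3.40) and Egfr (1.60). Also for immediate-early genes and EGF-family ligands and receptors the difference was negative for Tgfa (-1.31) and Erbb3 (-2.05). For sterol genes the difference was positive for Insig1 (1.19) and Nsdhl (1.44). For muscle, mast cell, endothelial and macrophage genes the difference was positive for Ttn (4.58), Myh3 (5.01), Mcpt4 (6.24), Cpa3 (4.75), Pecam1 (2.20), Cdh5 (2.12) and Mrc1 (1.60). Also for muscle, mast cell, endothelial and macrophage genes the difference was negative for C1qa (-1.97) and Lyz2 (-0.86). For the remaining genes the difference was positive for Atf3 (1.53), Bnip3 (2.31), Ccnd2 (1.30), Crct1 (0.77), Fth1 (1.69), Gab2 (1.14), Hk2 (1.54) and Hspa5 (0.55). Also for the remaining genes the difference was positive for Rspo3 (2.19), Slc7a11 (1.50), Wif1 (2.46) and Zmat3 (0.93). Also for the remaining genes the difference was negative for Ajuba (-2.77), Arg1 (-5.18), Bbc3 (-1.67), Car9 (-1.25), Ccnd1 (-0.49), Cd5l (-0.88), Cdc20 (-0.90) and Cdkn2a (-2.03). Also for the remaining genes the difference was negative for Chac1 (-1.22), Fcgbp (-3.01), Foxo3 (-0.61), Ftl1 (-0.93), Gpx4 (-1.19), Gsta4 (-2.64), Klhdc7a (-5.02) and Ndufb7 (-1.11). Also for the remaining genes the difference was negative for Perp (-2.70), Rpph1 (-1.83), Rps21 (-1.26), Scnn1a (-3.50), Sesn2 (-0.66), Wnt5b (-2.32) and Wnt7b (-3.35).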

How the results depend on the processing

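The number of genes called at 12 months ran from 8848 with a mean of at least 2 CPM to 10720 with no filter, and from 9062 to 9661 with 1 library left out. It was 9772 in edgeR and 9757 in DESeq2, both on recovered reads. The share of calls that were higher was 44.61%, and it was 29.1% without TMM scaling. It was 49.19% with TMM recomputed over the 6 libraries of 12 months and 50.63% with quantile normalization. At 2 months the count of 2245 moved to 1458 with TMM recomputed over the 12 libraries, 1322 with quantile normalization, 1413 without TMM and 1414 in edgeR. Leaving out 1 library gave 1407 to 3033 there, with 1407 without KO replicate 1 at 2 months and 1493 without KO replicate 3. Scaling also changed its split, from 11.54% higher to 29.22% with TMM recomputed over the 12 libraries. The cause was not tested. The difference between ages ran from 7344 to 8273 with 1 library left out, and 28.95% of its calls were upward without TMM against 54.5% with the deposited scaling. Of the genes named with a fitted value, 0 changed direction after being called under any of these alternatives, and 1, Xdh, lost its call, with quantile normalization. Mki67, Srebf2, Mvk and Ifi35, not called otherwise, passed under some alternatives, Mki67 with TMM recomputed, in edgeR (adjusted p = 0.0375), in DESeq2 (adjusted p = 0.0109) and with the replicate block (adjusted p = 0.0282). With the replicate number as a block, 10079, 2590 and 8517 genes were called at 12 months, at 2 months and between the ages. Deviations of same-numbered WT and KO libraries of 12 months correlated at 0.1295, -0.09324 and 0.1905, and nothing in the labels ties the numbers to a shared animal or day. Low counts limit genes such as Insc, which had 2 to 35 reads in the libraries of 12 months.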

Other observations

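Stress and metabolic lists moved in both directions in KO at 12 months. Of 22 unfolded protein and integrated stress genes 14 were higher and 6 lower in limma, with a median log2 change of 0.37. The chaperone gene Hspa5 was 1126, 1107 and 1141 CPM in the WT libraries and 1763, 1759 and 1744 CPM in the KO libraries (log2 change 0.64 ± 0.05 SE, adjusted p = 6.62e-08). All KO libraries exceeded all WT libraries, and the stress factor Atf3 changed by 1.43. Chac1, which degrades glutathione, and the sestrin Sesn2 were lower (-1.11 and -1.07). Of 26 glycolysis and hypoxia genes 14 were higher and 4 lower (median 0.31). The hexokinase Hk2 was 70.1, 76.4 and 80.1 CPM in the WT libraries and 169, 186 and 163 CPM in the KO libraries (log2 change 1.19 ± 0.06 SE, adjusted p = 2.35e-09). The mitophagy gene Bnip3 changed by 1.67 and the carbonic anhydrase Car9 by -1.54, so hypoxia-responsive genes did not share 1 direction.

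Wnt and Hippo lists divided as well. Of 22 Wnt genes 6 were higher (27.3%) and 11 lower (50%), against 31.3% and 38.9% over all genes (median -0.20). The ligand Wnt5b was 56.2, 56.5 and 59.4 CPM in the WT libraries and 6.63, 7.61 and 7.25 CPM in the KO libraries (log2 change -2.92 ± 0.10 SE, adjusted p = 6.82e-11), and Wnt7b changed by -2.81. The Wnt amplifier Rspo3 was 25.6, 26.5 and 23.2 CPM in the WT libraries and 73, 62.5 and 75.8 CPM in the KO libraries (log2 change 1.47 ± 0.08 SE, adjusted p = 3.48e-09), and the secreted Wnt inhibitor Wif1 changed by 1.95. The groups did not overlap for Wnt5b or Rspo3. Of 16 Hippo targets and regulators 5 were higher (31.2%) and 10 lower (62.5%), with a median of -0.36. The receptor tyrosine kinase Axl was 358, 363 and 369 CPM in the WT libraries and 1002, 1090.1 and 1171 CPM in the KO libraries (log2 change 1.58 ± 0.07 SE, adjusted p = 4.22e-10), while the LIM protein gene Ajuba changed by -2.69.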
